A study of Mus musculus with 6 samples.

Results

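The antioxidant and glutathione genes of the mouse cochlear lateral wall were examined as a group of 38 genes, taken by name, in 8 enzyme classes. The group spans the superoxide dismutases, catalase, the peroxidase families, the thioredoxin and glutathione systems, and the Nrf2 regulators. Each gene was represented by the probe set with the highest mean signal among those annotated with its symbol alone. This gave a value for 35 of the 38 genes, out of 18193 genes on the array. Prdx1 was covered only by 5 probe sets that also carry another symbol, and no probe set was listed under Prdx5 or Prdx6, so these 3 peroxiredoxins have no value.

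Tissue came from CBA/CaJ mice of both sexes, either young adults of 1 to 3 months or old mice of 1.5 years, with 3 samples per age and no treatment. The lateral wall was dissected from the inner ear, and total RNA was hybridised to 1-colour Affymetrix 3′ expression arrays, 1 sample per array. Values are log2 signals, each difference is the old minus the young mean, a mean is followed by its SD over the arrays of that age (n = 3), and a difference by its limma standard error. The labels do not say whether a sample came from 1 animal or a pool, so a p-value here reflects only how far these samples spread, and that spread may be technical.

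Superoxide dismutases turn superoxide into hydrogen peroxide, which catalase, glutathione peroxidases and peroxiredoxins remove. Glutathione and thioredoxin supply the electrons for the peroxidases and peroxiredoxins, and are themselves reduced at the cost of NADPH. The transcription factor Nrf2, the product of Nfe2l2, is held at low levels by Keap1 and raises many of these genes under oxidative stress. The stria vascularis in the lateral wall generates the endocochlear potential, is rich in mitochondria, and is a common site of study in age-related hearing loss.

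Age differences in the RNA for these enzymes were small. By limma, 0 of the 35 measured genes passed an adjusted p of 0.05 in either direction, where 4.78% of all genes passed, 2.45% higher and 2.33% lower in old tissue. At an unadjusted p under 0.05 there were 5 of 35, or 14.3%, against 20.7% of all genes. Of the alternatives fitted, array weights and an intensity trend with robust variance each called 1 member higher, and taking each gene's most variable probe set called 2 lower. The median difference was 0.05 over the members and 0.03 over all genes, and the median size of a difference was 0.11 and 0.10. The 95% interval of the difference lay within 0.5 log2 of zero, a factor of 1.41, for 34 of 35 members and for 81.4% of all genes. The exception was Nfe2l2, and the bounds of the other 34 intervals lay between -0.41 and 0.42.

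**Figure D1:**
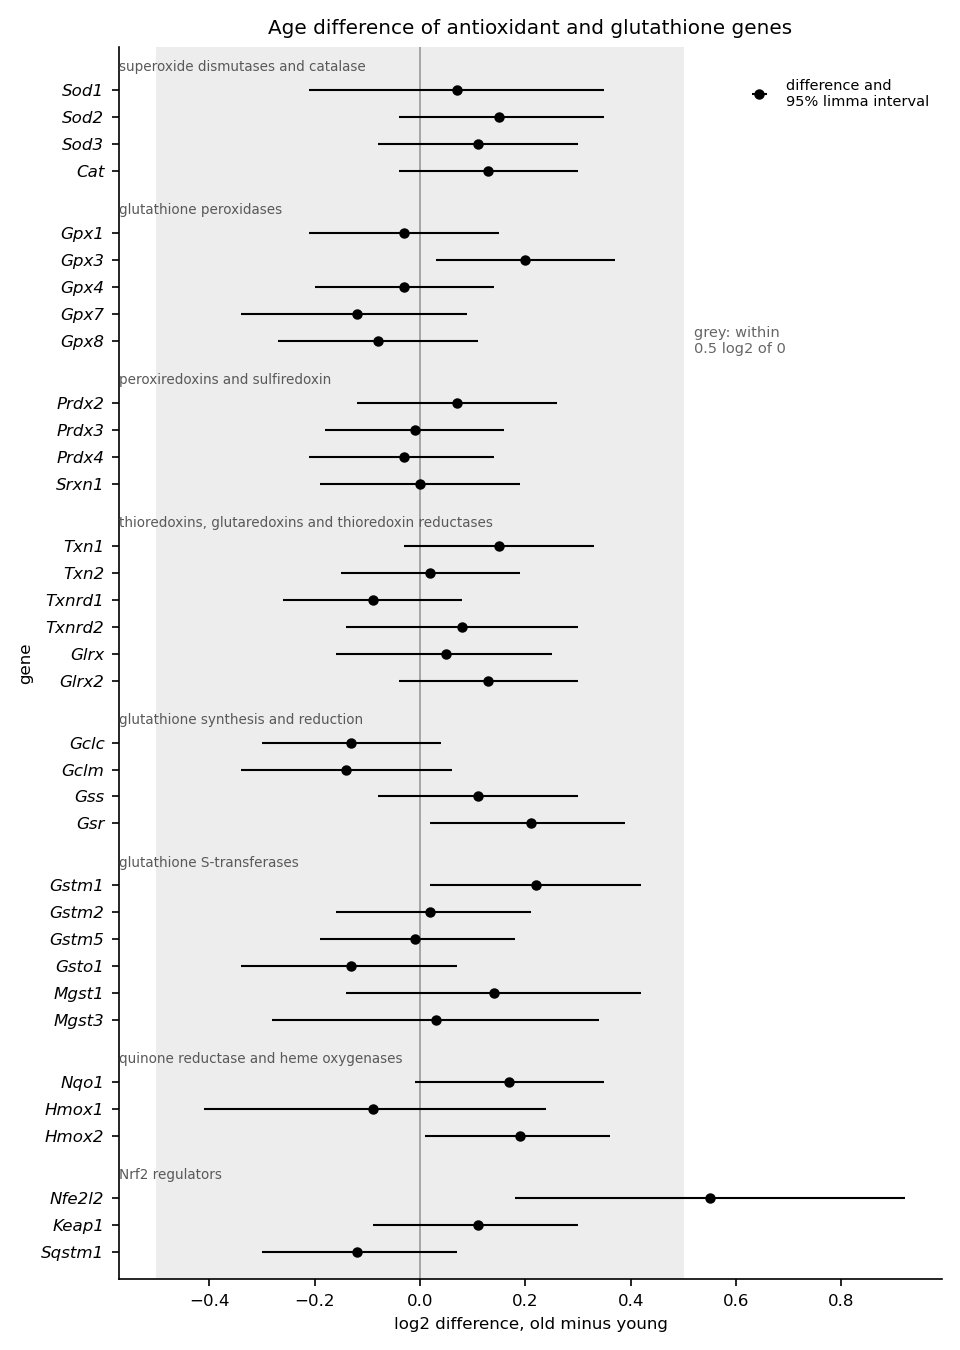
Difference in log2 signal between old and young arrays (points) with the 95% limma interval (lines) for the 35 measured genes, grouped by enzyme class. The grey band marks 0.5 log2 on either side of 0, and the Nfe2l2 interval, 0.18 to 0.92, is the only one that leaves it.

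The signs were mixed, with 22 positive and 13 negative differences, and 18 and 17 after cyclic loess scaling. Over all genes, 57.9% of differences were positive. Groups did not overlap for 12 of 35 members, or 34.3%, against 26.7% of all genes. In 10 of these the old arrays lay above the young ones, namely Sod2, Cat, Gpx3, Txn1, Glrx2, Gsr, Gstm1, Nqo1, Hmox2 and Nfe2l2. In the other 2, Txnrd1 and Gclc, they lay below. Without the Nfe2l2 value, the differences ran from -0.14 to 0.22, or from 0.910-fold to 1.16-fold.

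**Figure D2:**
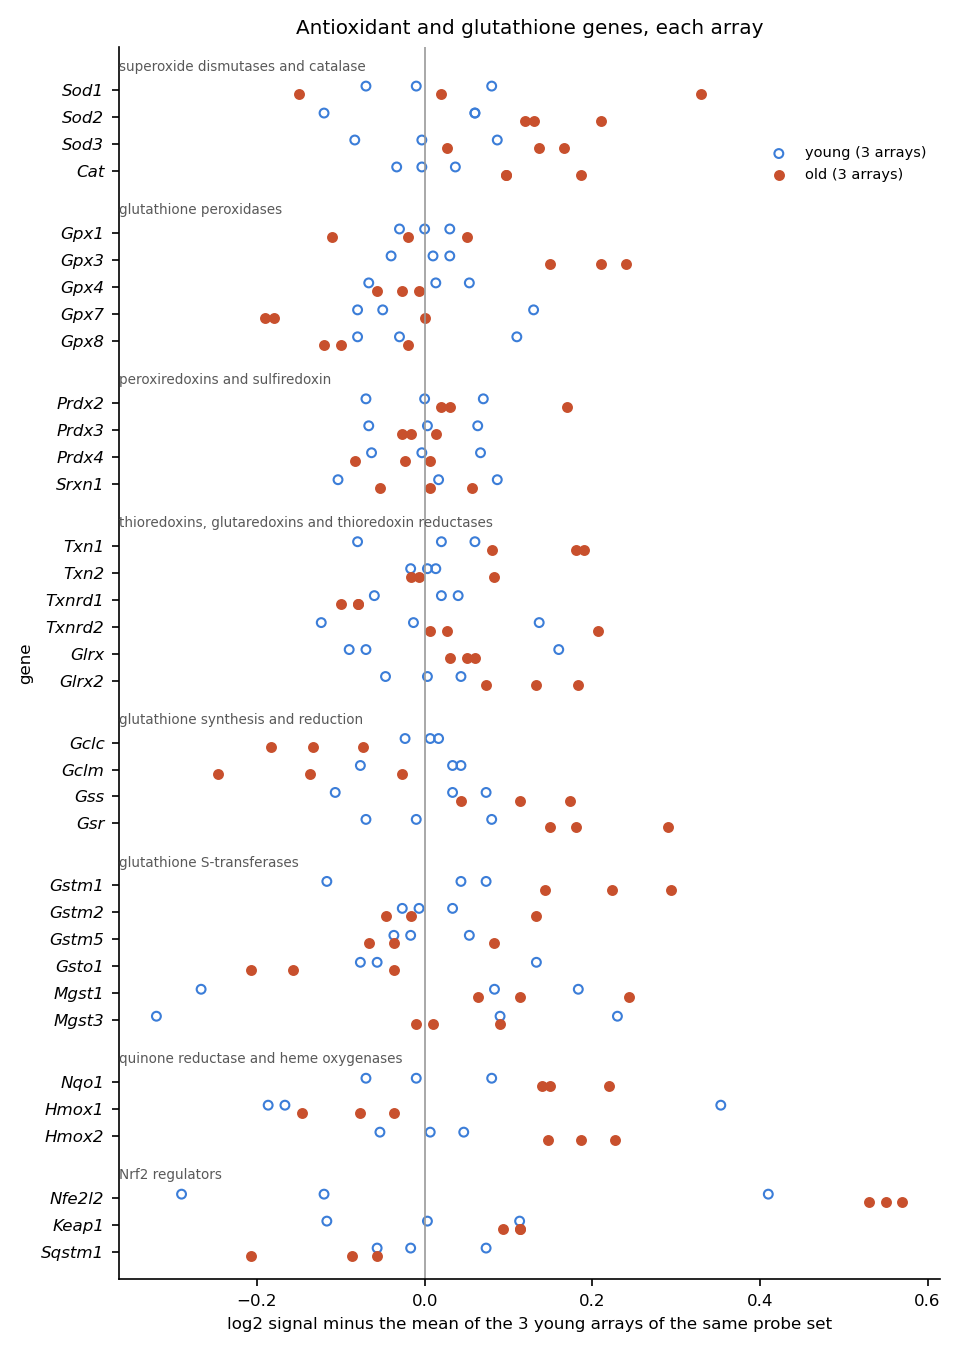
Log2 signal of each array minus the mean of the 3 young arrays for the same probe set, for young (open circles) and old (filled circles) samples. Most genes spread narrowly in both ages, and the widest young spread is that of Nfe2l2, with an SD of 0.37.

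Array properties were as follows. Array medians lay between 6.26 and 6.30. Markers of the dissected tissue were present: all 7 marginal cell genes and all 8 spiral ligament fibrocyte genes were brighter than the median probe set, as were 6 of 8 intermediate cell genes, and 0 of these 23 passed the test. All 5 basal cell genes were also brighter than the median probe set, and 1 of them, Sox8, rose by 0.56 (limma adjusted p = 0.0469). Young replicate 2 stood apart in sex-linked RNA, with an Xist signal of 6.06 where the other 5 arrays had 11.95 to 12.65, and the highest signals of the Y-linked genes Eif2s3y, 10.46, and Uty, 8.99. The other 5 arrays had Y-linked signal beside their Xist, at 8.97 to 9.71 for Eif2s3y and 7.41 to 8.03 for Uty. Signal of both kinds on 1 array is what RNA from both sexes would give, and the labels do not say whether a sample was a pool. Sex was not a term in the fit, and its part in the age differences was not tested. For Gapdh, the 3′ control probe set exceeded the 5′ one by 1.07 to 1.25 on the young arrays and by 1.26 to 1.45 on the old ones. The same gap for Actb overlapped between ages, at 1.46 to 1.60 and 1.39 to 1.84, and old replicate 1 had the smallest. The part of these gaps in the results was not tested. Bone and marrow genes were lower in old samples, with 4 of 9 measured osteoblast genes and 8 of 9 neutrophil genes called lower. Of all genes, 2.33% were called lower. Also called lower were 2 of 8 muscle genes, Acta2 and Tagln, and 1 of 3 measured Schwann cell genes, Pmp22. In bulk tissue, fewer cells of a type and less RNA per cell cannot be told apart.

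The master regulator gene Nfe2l2 gave opposite results at its 2 probe sets. At the brighter one, 1416543_at, the young arrays read 9.89, 10.59 and 10.06 and the old arrays 10.71, 10.75 and 10.73. All 3 old values were above all 3 young values, and young replicate 2 lay nearest to the old arrays. The means were 10.18 ± 0.37 and 10.73 ± 0.02, a difference of 0.55 ± 0.16, or 1.46-fold, which did not pass (limma adjusted p = 0.0970). Without young replicate 2, the array that stands apart in Xist, the difference was 0.76 and passed (limma adjusted p = 0.00486). In that fit 8.35% of all genes passed, 5.73% being higher in old tissue, and Nfe2l2 was the 1 member called. It was the only 1 of the 6 fits without 1 array in which this probe set passed. Over those 6 fits its difference ran from 0.41 to 0.76, with limma adjusted p up to 0.279.

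At the dimmer probe set of the same gene, 1457117_at, the young arrays read 7.44, 7.31 and 7.84 and the old arrays 6.21, 6.13 and 6.34. Here every old value was below every young value. The old values lay near the median of all probe sets, 6.28. Nfe2l2 fell from 7.53 ± 0.28 to 6.23 ± 0.11 at this probe set, a difference of -1.30 ± 0.14 (limma adjusted p = 0.00282). The call held when any single array was left out, with differences from -1.41 to -1.15 and adjusted p up to 0.0143. On each array the bright signal exceeded the dim one, by 2.22 to 3.28 at the young age and by 4.39 to 4.62 at the old age. This gap was singled out after both probe sets were seen to separate the ages in opposite directions, so it is given with no test. Averaged over both probe sets, Nfe2l2 had a difference of -0.38 (limma adjusted p = 0.0529), so no direction can be given for the gene as a whole.

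**Figure D3:**
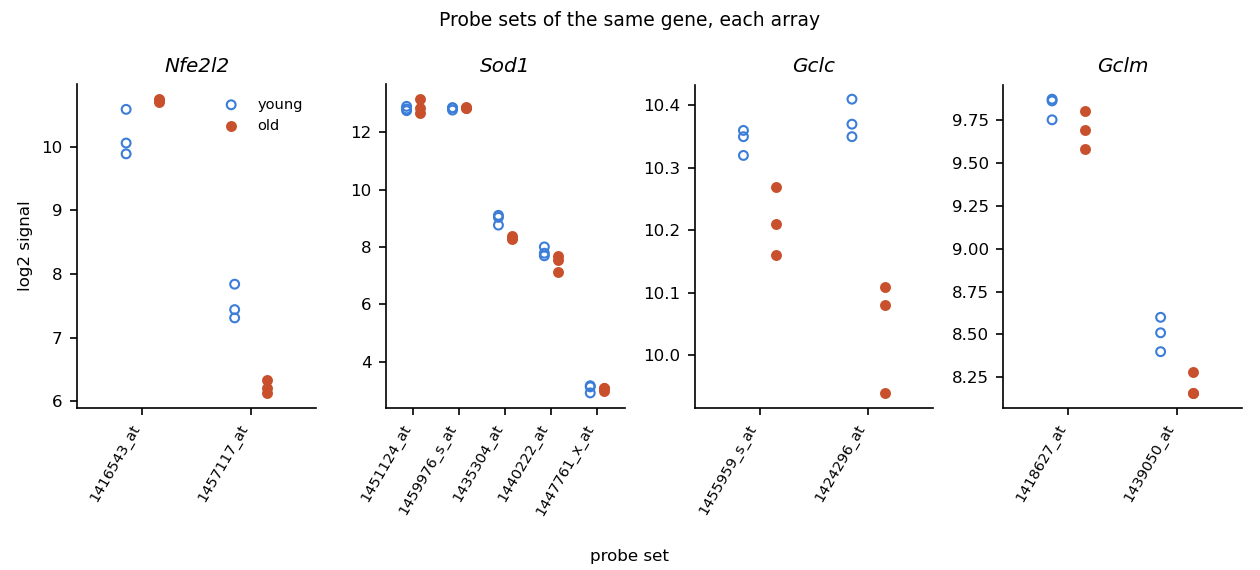
Log2 signal of every probe set annotated to Nfe2l2, Sod1, Gclc or Gclm alone, in young (open circles) and old (filled circles) arrays, with probe sets in order of mean signal and a separate vertical scale per gene. The Nfe2l2 probe sets differ in opposite directions, and at both probe sets of Gclc the old arrays lie below the young ones.

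Keap1 and Sqstm1, the other Nrf2 regulators among the members, were near their young levels. Keap1, the adaptor that sends Nrf2 for degradation, was at 8.98 ± 0.12 and 9.08 ± 0.01 (difference 0.11 ± 0.08, limma adjusted p = 0.581). Sqstm1, or p62, binds Keap1 and links it to autophagy. Its young arrays read 11.22, 11.35 and 11.26 and its old arrays 11.19, 11.07 and 11.22, so the groups overlapped at 1 shared value. The Sqstm1 difference was -0.12 ± 0.08 (limma adjusted p = 0.519).

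Nrf2 acts on a DNA element, the antioxidant response element, whose core is TGACNNNGC. This core was searched on both strands of RefSeq start-site windows on GRCm38.p6, from 250 bases before to 50 bases after a gene's start. A window was found for 33 of the 38 genes, and 8 of those, or 24.2%, held the core in at least 1 window, as did 14.0% of all 27025 symbols. The 7 with an expression value are shown, to set the element beside the levels. Each is written 5′ to 3′ on the strand that reads TGAC, with the core in capitals and 10 bases on either side.
Nfe2l2, chr2:75704885-75704913, minus strand: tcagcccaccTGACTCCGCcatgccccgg
Srxn1, chr2:152105542-152105570, minus strand: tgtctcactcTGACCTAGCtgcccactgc
Gstm5, chr3:107895802-107895830, plus strand: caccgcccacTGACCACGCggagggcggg
Gclm, chr3:122245413-122245441, minus strand: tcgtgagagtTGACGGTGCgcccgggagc
Mgst1, chr6:138140461-138140489, minus strand: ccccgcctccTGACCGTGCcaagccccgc
Txnrd1, chr10:82859104-82859132, minus strand: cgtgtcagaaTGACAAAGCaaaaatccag
Sod1, chr16:90220696-90220724, minus strand: ggcctgagtcTGACCACGCccaccttggc

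Gstm5 and Sod1 share the same 9 bases, TGACCACGC, which read along the gene in Gstm5 and against it in Sod1. These letters are a description of the window and do not show binding. Bases outside the windows were not searched, so a gene whose windows lack the core may hold it elsewhere. The 7 genes had differences from -0.14 (Gclm) to 0.55 (Nfe2l2) with a median of 0.00, and the 24 measured genes whose windows lack the core had a median of 0.06. In both sets 0 genes passed the limma test, beside 4.78% of all genes.

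Of the genes for the first steps of defence, 0 of 4 passed, with differences from 0.07 to 0.15. Sod1 encodes the cytosolic copper-zinc dismutase. Its young arrays read 12.81, 12.90 and 12.75 and its old arrays 13.15, 12.84 and 12.67, so the old values spanned the young ones. The Sod1 difference was 0.07 ± 0.12 (limma adjusted p = 0.849), and its sign was not stable: it was -0.01 with array weights, -0.07 without old replicate 1 and -0.19 when its probe sets were averaged. Sod2, the mitochondrial manganese enzyme, differed by 0.15 ± 0.08, extracellular Sod3 by 0.11 ± 0.08 and the peroxisomal catalase gene Cat by 0.13 ± 0.08. Their limma adjusted p were 0.382, 0.562 and 0.426. The Sod2 groups were adjacent without overlap, with a highest young value of 12.17 and a lowest old value of 12.23.

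Sod1 was the second gene whose probe sets disagreed in call. Of its 5 probe sets, the 2 brightest had differences of 0.07 and 0.04. Probe set 1435304_at read 9.10, 8.76 and 9.03 in young and 8.26, 8.32 and 8.38 in old arrays. It fell by 0.64 (SE 0.10, limma adjusted p = 0.0140), and the call was lost without young replicate 3, old replicate 1 or old replicate 3 (limma adjusted p = 0.0688, 0.0507 and 0.0562). Probe set 1440222_at had a difference of -0.38 ± 0.15 (limma adjusted p = 0.200). Over all 76 single-symbol probe sets of the 35 genes, these calls in Nfe2l2 and Sod1 were the 2 that passed, or 2.63%. Of all probe sets 4.71% passed, 2.84% downward. Of all genes with more than 1 probe set whose brightest one did not pass, 4.17% had another that fell. Of all the dimmer probe sets, 3.42% fell and 1.46% rose.

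Glutathione peroxidases reduce peroxides with glutathione, and 0 of the 5 member genes passed. Within these 5, Gpx3 had the highest difference. Gpx3, the secreted selenoenzyme, read 12.71, 12.78 and 12.76 in young and 12.99, 12.96 and 12.90 in old arrays. All old values were above all young values. Its difference of 0.20 ± 0.07, or 1.15-fold, did not pass (limma adjusted p = 0.183), and it passed with an intensity trend and robust variance (limma adjusted p = 0.0326). Gpx4 reduces lipid peroxides in membranes and guards against ferroptosis. It read 13.52, 13.60 and 13.64 in young and 13.53, 13.56 and 13.58 in old arrays, values that interleave, with a difference of -0.03 ± 0.08 (limma adjusted p = 0.894). The cytosolic Gpx1 differed by -0.03 ± 0.08, and the endoplasmic reticulum members Gpx7 and Gpx8 by -0.12 ± 0.09 and -0.08 ± 0.08. The limma adjusted p of these 3 were 0.912, 0.562 and 0.699.

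The measured peroxiredoxins, thiol peroxidases that draw on thioredoxin, had differences from -0.03 to 0.07, and together with sulfiredoxin their median was 0.00. Prdx2, a cytosolic member abundant in red cells, read 12.64, 12.78 and 12.71 in young and 12.88, 12.73 and 12.74 in old arrays. The values overlapped, and the difference was 0.07 ± 0.08 (limma adjusted p = 0.729). Of 12 listed erythroid genes 7 had a value, and only 2 of these were brighter than the median probe set. Slc4a1 fell and Tspan33 rose, and the median difference of the 7 was -0.28, with 2 of them positive. The log2 of the summed signal of the 7 genes was 8.57 to 8.89 at the young age and 8.67 to 8.81 at the old age. Their part in the Prdx2 value was not tested. The mitochondrial Prdx3 and the secretory pathway Prdx4 differed by -0.01 ± 0.08 and -0.03 ± 0.08 (limma adjusted p = 0.968 and 0.885). Srxn1, sulfiredoxin, which restores over-oxidised peroxiredoxins, was at 8.79 ± 0.10 and 8.80 ± 0.06 (limma adjusted p = 0.990).

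In the thioredoxin system, Txn1, the cytosolic thioredoxin, read 12.56, 12.52 and 12.42 in young and 12.68, 12.69 and 12.58 in old arrays. The old values were all above the young ones, by as little as 0.02 at the nearest pair. Its difference was 0.15 ± 0.08 (limma adjusted p = 0.367). Txnrd1, the cytosolic reductase of thioredoxin, lay the other way, at 10.77 ± 0.05 and 10.68 ± 0.01, with a difference of -0.09 ± 0.07 (limma adjusted p = 0.619). Their mitochondrial counterparts Txn2 and Txnrd2 differed by 0.02 ± 0.07 and 0.08 ± 0.10. The glutaredoxins Glrx and Glrx2, which release glutathione from protein thiols, differed by 0.05 ± 0.09 and 0.13 ± 0.08. The limma adjusted p of these 4 were 0.932, 0.754, 0.856 and 0.420. All 3 probe sets of Glrx2 had old values above the young ones, with differences of 0.13, 0.18 and 0.22, and 0 passed.

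In glutathione synthesis and reduction, 0 of 4 genes passed. Gclc and Gclm are the catalytic and modifier subunits of glutamate-cysteine ligase, the rate-limiting enzyme, and both had negative differences at each of their 2 probe sets. At its brighter probe set, Gclc read 10.32, 10.36 and 10.35 in young and 10.27, 10.21 and 10.16 in old arrays, without overlap. That difference was -0.13 ± 0.07 (limma adjusted p = 0.408). At 1424296_at, Gclc read 10.41, 10.35 and 10.37 in young and 10.11, 10.08 and 9.94 in old arrays, again without overlap. The second Gclc difference, -0.33 ± 0.08, lay just outside the threshold (limma adjusted p = 0.0546). Gclm differed by -0.14 ± 0.09 at its brighter probe set and by -0.30 ± 0.09 at its dimmer one (limma adjusted p = 0.467 and 0.0886).

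Gss, glutathione synthetase, which adds glycine in the last step, differed by 0.11 ± 0.08 (limma adjusted p = 0.565). Gsr, the reductase that regenerates glutathione from its disulfide, read 9.18, 9.09 and 9.03 in young and 9.39, 9.28 and 9.25 in old arrays. These groups did not overlap, and the difference of 0.21 ± 0.08, or 1.15-fold, did not pass (limma adjusted p = 0.211). The dimmer Gsr probe set differed by 0.03 ± 0.08, with overlapping groups.

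Glutathione S-transferases join glutathione to electrophiles. Gstm1, a cytosolic mu-class enzyme, read 10.73, 10.76 and 10.57 in young and 10.91, 10.98 and 10.83 in old arrays. The old values were above the young ones, with a difference of 0.22 ± 0.09, or 1.16-fold (limma adjusted p = 0.207). All 4 Gstm1 probe sets had positive differences, from 0.15 to 0.31, and 0 passed. Gstm1 belongs to a cluster of closely related mu-class genes, and its chosen probe set is of the type that can bind related transcripts, so the assignment to Gstm1 is uncertain.

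Of its relatives, Gstm2 differed by 0.02 ± 0.08 (limma adjusted p = 0.927). Gstm5 read 12.11, 12.18 and 12.09 in young and 12.21, 12.09 and 12.06 in old arrays, with overlapping groups and a difference of -0.01 ± 0.08 (limma adjusted p = 0.980). The omega-class gene Gsto1 differed by -0.13 ± 0.09, and the membrane-bound Mgst1 and Mgst3 by 0.14 ± 0.12 and 0.03 ± 0.13. Their limma adjusted p were 0.505, 0.629 and 0.943. Young replicate 1 was low for both membrane enzymes, at 11.08 for Mgst1 and 9.80 for Mgst3, where the other young arrays had 11.43 and 11.53, and 10.21 and 10.35.

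Of the classical Nrf2-induced enzymes, Nqo1, which reduces quinones without leaving a radical intermediate, was at 7.96 ± 0.08 and 8.13 ± 0.04. The Nqo1 groups did not overlap, and the difference was 0.17 ± 0.08 (limma adjusted p = 0.290). Hmox2, the constitutive heme oxygenase, read 10.67, 10.77 and 10.73 in young and 10.95, 10.91 and 10.87 in old arrays. The old values were all above the young ones, and the difference of 0.19 ± 0.08, or 1.14-fold, did not pass (limma adjusted p = 0.218). Hmox1, the inducible form, had a difference of -0.09 ± 0.14 (limma adjusted p = 0.826). Its highest value, 7.44, was that of young replicate 2, and the other 5 arrays read 6.90 to 7.05. Without that array the Hmox1 difference was 0.09 (limma adjusted p = 0.597), so its sign rests on 1 array. Hmox1 is also expressed by macrophages, of whose 14 listed markers 3 rose and 1 fell with a median difference of 0.27. On the log2 scale the summed macrophage signal ran from 12.85 to 13.01 at the young age and from 13.46 to 13.57 at the old age, and its part in the Hmox1 value was not tested.

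Genes that surround these enzymes were read from 7 lists holding 120 genes, of which 109 had a value. By limma, 1 rose and 4 fell, which is 4.59% and close to the 4.78% of all genes. The median difference over these genes was 0.05. When arrays were left out in turn, the number higher was 0 to 4 and the number lower 0 to 4. The share of all genes called then ran from 1.25% to 8.35%. In these fits the called genes kept their signs. Differences ran from 0.68 to 1.03 for Gpx6, from -0.49 to -0.41 for Txnrd3 and from -0.62 to -0.44 for Dpep1. For Mafk they ran from -0.86 to -0.60 and for Aox1 from -0.38 to -0.30.

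Gpx6, a peroxidase known from olfactory tissue, rose from 8.01 ± 0.38 to 8.91 ± 0.13, a difference of 0.90 ± 0.17 (limma adjusted p = 0.0276). Its young arrays read 7.58, 8.17 and 8.29 and its old arrays 9.01, 8.96 and 8.76. It was the 1 called of 20 other transferases and peroxidases, and the call was lost without old replicate 1, 2 or 3 (limma adjusted p = 0.0879, 0.0736 and 0.0732). Txnrd3, a thioredoxin-glutathione reductase known from testis, fell from 8.57 ± 0.09 to 8.11 ± 0.02, a difference of -0.46 ± 0.08 (limma adjusted p = 0.0179). All 3 Txnrd3 probe sets passed, with differences of -0.46, -0.39 and -0.47. At the chosen one the call was lost without young replicate 3 or old replicate 1, 2 or 3 (limma adjusted p = 0.0630, 0.0598, 0.0563 and 0.0846). The other 13 genes of thioredoxin-fold proteins and methionine sulfoxide reductases did not pass.

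Dpep1, a dipeptidase that splits the cysteinylglycine left by glutathione breakdown, fell from 5.87 ± 0.08 to 5.32 ± 0.18, a difference of -0.54 ± 0.11 (limma adjusted p = 0.0284). Both Dpep1 probe sets passed, and both were dimmer than the median probe set. It was the 1 called of 20 genes for glutathione precursors, turnover and transport. Its call was lost without young replicate 1 or 3 or old replicate 2 or 3 (limma adjusted p = 0.0831, 0.0952, 0.0694 and 0.0982).

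Of 18 other genes tied to Nrf2, 2 fell and 0 rose. Mafk, a small Maf protein that pairs with Nrf2 on DNA, fell from 9.82 ± 0.26 to 9.09 ± 0.08, with every old array below every young one. The Mafk difference was -0.73 ± 0.13 (limma adjusted p = 0.0202), and its call was lost without young replicate 3 or old replicate 1 or 3 (limma adjusted p = 0.0882, 0.0690 and 0.0802). Aox1, aldehyde oxidase, fell from 10.43 ± 0.07 to 10.09 ± 0.03, a difference of -0.34 ± 0.08 (limma adjusted p = 0.0467). Aox1 did not pass without any 1 of the arrays other than young replicate 2 (limma adjusted p from 0.112 to 0.157), and with the replicate number as a block it had an adjusted p of 0.0749.

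The remaining lists had 0 calls by limma, and each is represented by its gene with the smallest p. An unadjusted p under 0.05 was found for 20.7% of all genes. Of 8 genes for NADPH supply, 0 had one, and malic enzyme gene Me1 differed by 0.18 (limma adjusted p = 0.292). Of 19 other selenoproteins and genes for selenium handling, 4 had one, and Dio2, a deiodinase that activates thyroid hormone, differed by -0.59 ± 0.14 (limma adjusted p = 0.0581). Of 10 genes for sources of superoxide and hydrogen peroxide, 4 had one. Cybb, the catalytic subunit of the phagocyte NADPH oxidase, differed by 0.36 ± 0.09 (limma adjusted p = 0.0665). The macrophage marker sums given above moved the same way as Cybb, and their part in it was not tested. Of the 14 markers in the sums 10 had positive differences, the largest being 1.56 for Lyz2. The sums add linear signals, so bright genes weigh most, and Lyz2 was the brightest marker in old samples, at 12.02. Cd14, Cd163, Mrc1 and Csf1r went the other way, with differences of -1.03, -0.33, -0.32 and -0.08.

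**Figure D4:**
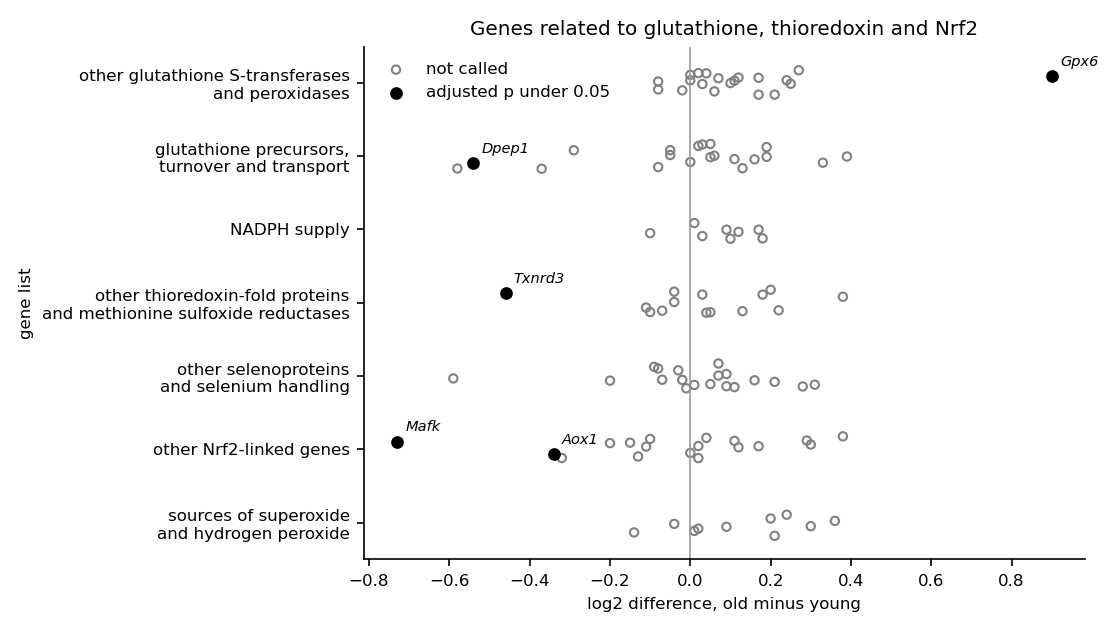
Difference in log2 signal, old minus young, for the 109 measured genes of the 7 related lists (points, with vertical scatter only to separate them), with the 5 genes that passed a limma adjusted p of 0.05 filled and named. Gpx6 lies apart on the right at 0.90, and Mafk, Dpep1, Txnrd3 and Aox1 lie on the left.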

How the data were processed

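Total RNA was labelled with an Affymetrix 3′ IVT kit, per the labels' protocols. The deposited table holds log2 values for 45101 probe sets on 6 arrays, from 2.66 to 14.76, normalized by the authors. Per the submitters' processing notes, the tools were RMA, MAS5 and Affymetrix Expression Console; which of them made these values, and their versions, are not given in the sources used here. Scanner files were not used here, so neither background nor scan batch was examined, and precision is limited by the number of arrays. Normalization to a shared distribution would remove a shift common to most genes.

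The 64 control probe sets were left out, leaving 45037. Symbols were read from the platform annotation held by GEO: 34945 probe sets had 1 symbol, 932 several and 9160 none listed. RefSeq symbols matched through Entrez identifiers changed 0 names. Old and young were compared by lmFit and eBayes of limma 3.58.1 (R 4.3.3), age being the only term, with Benjamini-Hochberg adjustment over all probe sets. Intervals are 95% limma intervals of single genes. A gene is called at an adjusted p under 0.05.

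The member genes, lists and tests were chosen with earlier results of these data known. All members are given by class. Each array's value is given for members that pass, members with an unadjusted p under 0.05 and groups that do not overlap, and the member of each class with the highest signal. Of each related list, the called genes or else the gene with the smallest p are named. Glrx2, Gclm, Nqo1, Txnrd1, Hmox1, Mgst1 and Mgst3 have further values that were singled out after they were seen. The script was tested on simulated data. Equal replicate numbers were not treated as pairs.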

Additional observations from a re-analysis of the deposited data

How the results depend on the processing

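The count of members called higher was 1 with array weights (Nfe2l2) and 1 with an intensity trend and robust variance (Gpx3), against 0, and 0 to 1 when arrays were left out in turn. The count of members called lower was 2 with the probe set of largest variance per gene, where Nfe2l2 was -1.30 and Sod1 -0.64, against 0, and 0 in every fit without 1 array. The median difference of the members, 0.05, was 0.01 after cyclic loess and 0.00 when probe sets were averaged per gene, and 0.02 to 0.08 without single arrays. Related genes called higher, 1 as reported, numbered 8 with array weights, 5 among probe sets above the median signal, 4 with trend and robust variance, 3 for the mean of probe sets, 2 after quantile normalization again and 0 at an adjusted p of 0.01. Related genes called lower, 4 as reported, numbered 7 with trend and robust variance and 0 at 0.01. Leaving out arrays gave 0 to 4 in each direction. The percentage of all genes called, 4.78, was 10.5 with array weights, 9.05 above the median signal, 1.05 at 0.01, and 1.25 (without old replicate 3) to 8.35 (without young replicate 2) with 1 array left out. For all of these the cause was not tested. Deviations from the group means of same-numbered young and old arrays correlated at 0.137, 0.0753 and 0.00782 across probe sets. Those of arrays with unlike numbers correlated at -0.114 to 0.0681. With 3 arrays per age these values cannot decide whether the numbers pair the samples. With the replicate number as a block, members called were 0 in both directions, related genes 1 and 4, and all genes 4.51%. Among members, 20 sign changes of uncalled differences were seen over 17 settings, in 11 genes. With median centring, and with adjustment over 1 probe set per gene, every count stayed within 1.5 times its reported value.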

Other observations

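Across the array, probe sets other than the brightest of a gene were called lower more often than higher. Of 16752 such probe sets, 3.42% passed downward and 1.46% upward by limma, so 70.1% of these 817 calls were lower. Among the brightest probe sets, 48.7% of 870 calls were lower. Of 8531 genes with more than 1 probe set whose brightest one was not called, 4.17% had another one called lower, as Sod1 and Nfe2l2 did. On every old array the 3′ to 5′ gap of Gapdh was wider (1.26 to 1.45) than on any young array (1.07 to 1.25). The same gap of Actb overlapped between ages (1.39 to 1.84 on old and 1.46 to 1.60 on young arrays), and was smallest on old replicate 1. The part of either gap in these counts was not tested.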
